A study of Rattus norvegicus with 12 samples.

Results

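Spink1 and Spink1l are rat genes for Kazal-type inhibitors of trypsin, and this account describes every probe set annotated to either gene alone, which is 4 of 15866 non-control probe sets on the Affymetrix RAE230A rat array. Spink1 had 3 probe sets (1368446_at, 1368447_x_at and 1387193_a_at) and Spink1l had 1 (1387967_at). Both genes were taken up because their injury to sham ratios on days 2, 4 and 7 were known to be high, so these ratios are given as a description, without a test. They were selected on the centred log2 ratios of these days. The study set thermally injured rats against sham controls, and the values here are from 9 samples, 3 for each of days 2, 4 and 7. No label gives strain, age, sex or tissue, or says that samples are from different animals. Every p-value therefore measures only the spread between these samples, which may be technical.

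Each value is the authors' deposited log2 ratio of 2 array signals. Injury over sham is the likely order, since the labels give injury in channel 2 and sham in channel 1. Positive values are taken to mean a higher signal after injury. Each array was centred on its own median, which lay between -0.13 and 0.16, so a value of 0 is the typical probe set of that array. Day 1 was left out because its identifiers do not match those of the other days.

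Kazal-type inhibitors carry a small disulfide-bonded domain whose exposed loop fits the active site of a serine protease and blocks it. The pancreatic secretory trypsin inhibitor is stored with the digestive enzymes of the acinar cell, where it inactivates trypsin that forms too early. In human liver cells SPINK1 is also known as an acute-phase gene that responds to interleukin 6, the cytokine that drives the hepatic response to injury. The RefSeq table gives PSTI-61 among the synonyms of Spink1 and PSTI-56 among those of Spink1l, and it lists Spink3 under both.

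The genes lie on the minus strand of rat chromosome 18 (GRCr8), Spink1l at 36077512 to 36086696 and Spink1 at 36121626 to 36133596, with 34929 bases between them. Their promoter windows of 300 bases are shown because the array has to tell apart a pair of closely related genes, and because they show how alike the 2 copies are around their start sites. Sequences are from RefSeq, run 5′ to 3′, and cover chr18:36133547-36133846 for Spink1 and chr18:36086647-36086946 for Spink1l, both on the minus strand. Capitals mark the bases at which the aligned windows differ or that lie in a gap of the other, while the unaligned ends, 11 bases at the start of the Spink1l window and 2 at the end of the Spink1 window, are in lower case.
Spink1: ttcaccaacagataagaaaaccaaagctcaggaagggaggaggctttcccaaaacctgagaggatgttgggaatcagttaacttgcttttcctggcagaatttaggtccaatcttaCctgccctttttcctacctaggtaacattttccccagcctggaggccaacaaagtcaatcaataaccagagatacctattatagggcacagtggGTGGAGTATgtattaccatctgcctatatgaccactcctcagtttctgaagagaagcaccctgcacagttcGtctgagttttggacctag
Spink1l: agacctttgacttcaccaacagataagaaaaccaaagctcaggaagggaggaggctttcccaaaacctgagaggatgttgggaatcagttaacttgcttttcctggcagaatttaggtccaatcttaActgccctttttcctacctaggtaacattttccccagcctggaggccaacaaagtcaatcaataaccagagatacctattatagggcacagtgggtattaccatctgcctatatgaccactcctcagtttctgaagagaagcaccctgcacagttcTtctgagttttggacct
Over the 289 bases aligned in both windows, 287 were identical (99.3%) and 2 differed. The single gap inside the alignment was a run of 9 bases present in the Spink1 window only. A search of both strands found 0 matches in either window to TTCNNNGAA (the STAT core), CTGGGAA (a type 2 interleukin 6 response element), CACCTG (an E-box) and TATAAA. Of 33469 RefSeq promoter windows of the same length, 8.87%, 11.3%, 18.8% and 14.2% held these 4 motifs in that order. These exact letters are not in these windows. Variants, such as other forms of the E-box, were not searched for, and the search says nothing of elements farther away. Whether a probe set of one gene also binds RNA of the other was not tested.

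The 3 Spink1 probe sets are all annotated to the same accession, M27882, yet they gave ratios of very different size. In the _a_at probe set 1387193_a_at, the centred log2 ratio was 8.04, 7.32 and 3.40 in samples 1, 2 and 3 of day 2. On day 4 it was 2.08, 4.93 and 2.72, and on day 7 it was 7.42, 4.62 and 2.08. All 9 arrays were above 0, with day 2 samples 1 and 2 and day 7 sample 1 the highest, and the ranges of the 3 days overlapped. The mean was 6.25 ± 2.50 on day 2, 3.24 ± 1.50 on day 4 and 4.71 ± 2.67 on day 7 (SD, n = 3 each), and 4.73 ± 2.37 over the 9 arrays, which is 26.6-fold.

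The _x_at probe set 1368447_x_at had log2 ratios of 7.25, 6.95 and 3.10 on day 2. Its values were 2.35, 4.29 and 3.20 on day 4 and 4.61, 5.33 and 1.64 on day 7. The highest arrays of this set were samples 1 and 2 of day 2, and the lowest was sample 3 of day 7. The suffix marks a set with some probes that can also bind other transcripts, and the part of such binding was not tested. The day means were 5.77 ± 2.32, 3.28 ± 0.97 and 3.86 ± 1.96 (SD, n = 3 each) in order of day, and the mean over the 9 arrays was 4.30 ± 1.95, or 19.7-fold. Over the 9 arrays the _a_at and _x_at sets differed by 0.43 ± 1.03 (_a_at minus _x_at), and in day 7 sample 1 by 2.81.

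The third Spink1 probe set, 1368446_at, showed a smaller ratio than the other Spink1 sets. It had 0.96, 1.00 and 0.50 on day 2, 0.51, -0.11 and 0.64 on day 4, and 0.85, 0.82 and 1.03 on day 7. Only day 4 sample 2 lay below 0. Its mean was 0.82 ± 0.28, 0.35 ± 0.40 and 0.90 ± 0.11 on the 3 days (SD, n = 3 each) and 0.69 ± 0.36 over the 9 arrays, which is 1.61-fold. In every array the other Spink1 sets were above it, the _a_at set by 1.05 to 7.08 and the _x_at set by 0.61 to 6.29 on the log2 scale. A single fold change for Spink1 therefore depends on the probe sets that enter it.

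Spink1l had the same direction in all 9 arrays. Its log2 ratio was 1.25, 1.60 and 0.85 on day 2, 0.97, 0.67 and 0.59 on day 4, and 0.71, 0.53 and 0.42 on day 7. Day 2 sample 2 was the highest and day 7 sample 3 the lowest, and the ranges of days 2 and 7 did not overlap. The share of all probe sets with such separate ranges was not counted. These ratios also chose the gene, so nothing is read from the separation. The day means were 1.23 ± 0.38 (2.35-fold), 0.74 ± 0.20 (1.68-fold) and 0.55 ± 0.15 (1.47-fold) (SD, n = 3 each). The mean over 9 arrays was 0.84 ± 0.38, or 1.79-fold.

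**Figure D1:**
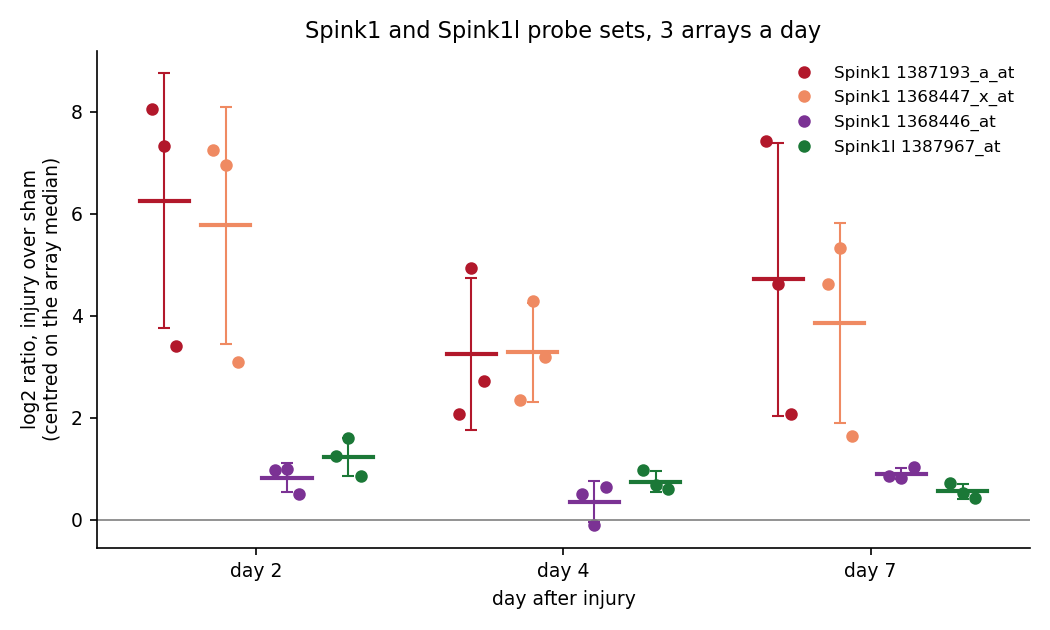
Centred log2 ratios of injury over sham (vertical axis) for the 4 probe sets on days 2, 4 and 7. Points are arrays, horizontal bars are means and whiskers are SDs of 3 arrays. The 2 Spink1 sets 1387193_a_at and 1368447_x_at reach 8.04 and 7.25 on day 2, while 1368446_at and Spink1l stay at or below 1.60.

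Against all probe sets, the _a_at and _x_at sets ranked first and second of 15866 by the mean over 9 arrays, Spink1l ranked 158 and 1368446_at ranked 298. A centred ratio above 0 in all 9 arrays was found for 75 of 15866 probe sets (0.473%), among them 3 of the 4 members. A ratio above 1 in all 9 arrays was found for 2 (0.0126%), the _a_at and _x_at sets of Spink1. The rule for choosing the genes used these same ratios, so the ranks and counts carry no weight of their own. They also rest on the likely order of the ratio, and 104 probe sets (0.655%) were below 0 in all 9 arrays, the count that would apply with the sign turned.

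The sham numbers recovered from the ratios were low in the 2 Spink1 sets with large ratios and high in the third. Where a deposited value equals the log2 quotient of 2 whole numbers, that pair gives the injury and the sham signal in lowest terms and in a unit that the sources used here do not give. A common factor of a pair is lost, so each number is a lower limit of its signal. Between 94.1% and 94.7% of the probe sets of an array gave a pair with both numbers up to 20000. After a small random shift of the values, 12.2% to 13.2% of the rows of these arrays still gave one. A single pair of the 3 Spink1 sets would arise by chance with a probability of at most 3.95%, which does not cover all pairs together.

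In the _a_at set the injury and sham signals on day 2 were 6732 against 25 in sample 1 and 12120 against 83 in sample 2. Sample 3 of day 2 gave no pair. On day 4 they were 856 against 207, 2314 against 77 and 19 against 3, and on day 7 11342 against 65, 850 against 33 and 3289 against 697. The sham signal was below 90% of all recovered sham signals of its array in 6 of 8 arrays, while the injury signal was above the middle of its array in 5 of 8. The recovered sham numbers were thus low for their array in most arrays, and the highest was that of day 7 sample 3, at percentile 42.7. As lower limits, such as 19 against 3, they do not show how dim the signal itself was.

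The _x_at set showed the same arrangement. Its injury and sham signals were 5935 against 38, 12108 against 107 and 4268 against 503 in the 3 samples of day 2. They were 1327 against 265, 2071 against 107 and 123 against 14 on day 4, and 9109 against 366, 3910 against 93 and 8113 against 2334 on day 7. The injury signal had a median percentile of 83.0 within its array and the sham signal 11.6. Day 7 sample 3 had the lowest ratio of the 9 arrays and the highest sham signal, at percentile 72.0.

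In 1368446_at both recovered numbers were high. The injury and sham signals were 6833 against 3423, 11406 against 6227 and 10825 against 7729 on day 2. They were 11431 against 8207, 1852 against 2027 and 8546 against 5711 on day 4, and 1901 against 1035, 6747 against 3652 and 3863 against 1696 on day 7. The median percentile within the array was 90.8 for the injury signal and 79.9 for the sham signal. A percentile ranks a recovered number within its array and does not compare the levels of different probe sets as RNA.

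For Spink1l, 7 of 9 ratios gave no pair up to 20000, as happened to between 5.28% and 5.90% of the probe sets of an array. The 2 pairs found for Spink1l were 9249 against 6394 in day 4 sample 3 and 19314 against 12889 in day 7 sample 3. The pairs of Spink1l had a chance probability of up to 10.5%.

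**Figure D2:**
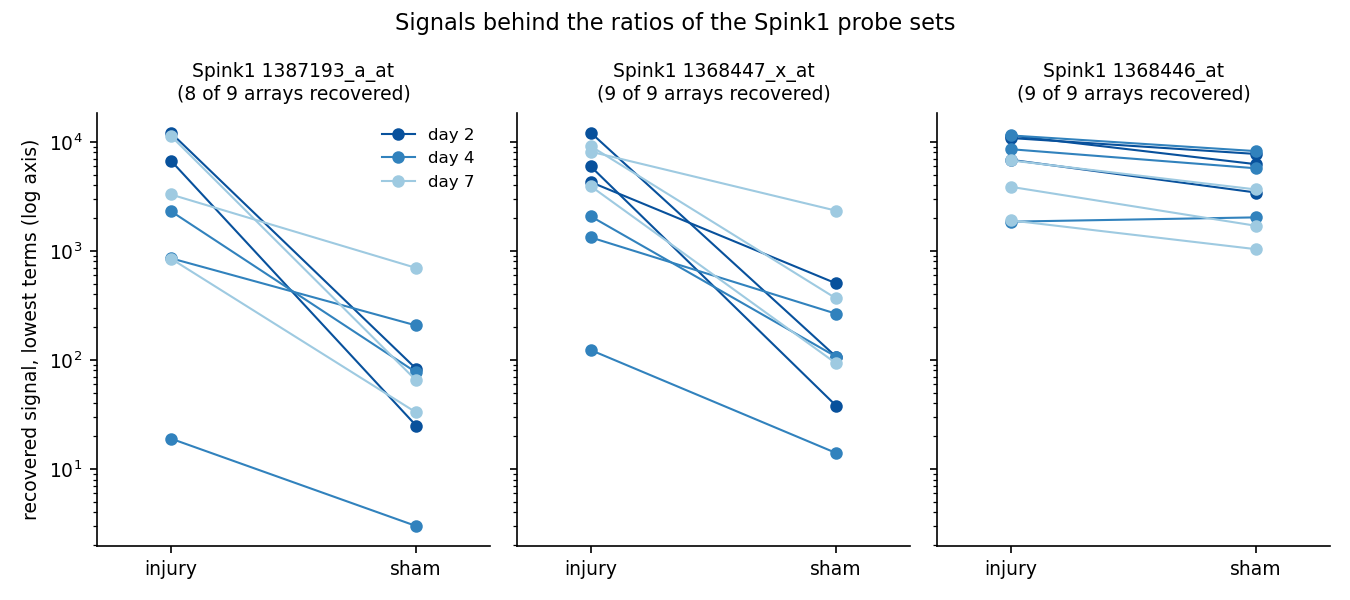
Injury and sham signals in lowest terms (logarithmic vertical axis) behind the ratios of the 3 Spink1 probe sets. Each line joins the 2 signals of an array and shades mark days. In 1387193_a_at and 1368447_x_at the lines drop steeply to sham signals with medians of 71 and 107, and in 1368446_at they are nearly level, with a sham median of 3652.

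The spread of the _a_at and _x_at sets was set beside that of all probe sets of the same or lower brightness. That of Spink1l was set beside probe sets at the search limit. Brightness is here the median over 9 arrays of the log2 of the smaller signal, with pairs not found set at the search limit. In the _a_at and _x_at sets the smaller recovered signal was that of sham, so low brightness does not mean a low injury signal. A lost common factor can make a probe set seem dimmer, and a pair not found can make it seem brighter. Brightness was 6.27 for the _a_at set, brighter than 5.58% of all probe sets, and 6.74 for the _x_at set, brighter than 8.64%. Among the 913 probe sets as dim as the _a_at set or dimmer, the median SD over the 9 arrays was 1.21, against 0.44 over all probe sets, and the SD of the _a_at set was 2.37. For the _x_at set the SD was 1.95, against a median SD of 1.19 among the 1392 as dim or dimmer. For 1368446_at the SD was 0.36, against a median SD of 0.28 among the 3941 as bright or brighter. Among the 1015 probe sets at the search limit, where Spink1l lies, the median SD was 0.27, and that of Spink1l was 0.38.

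**Figure D3:**
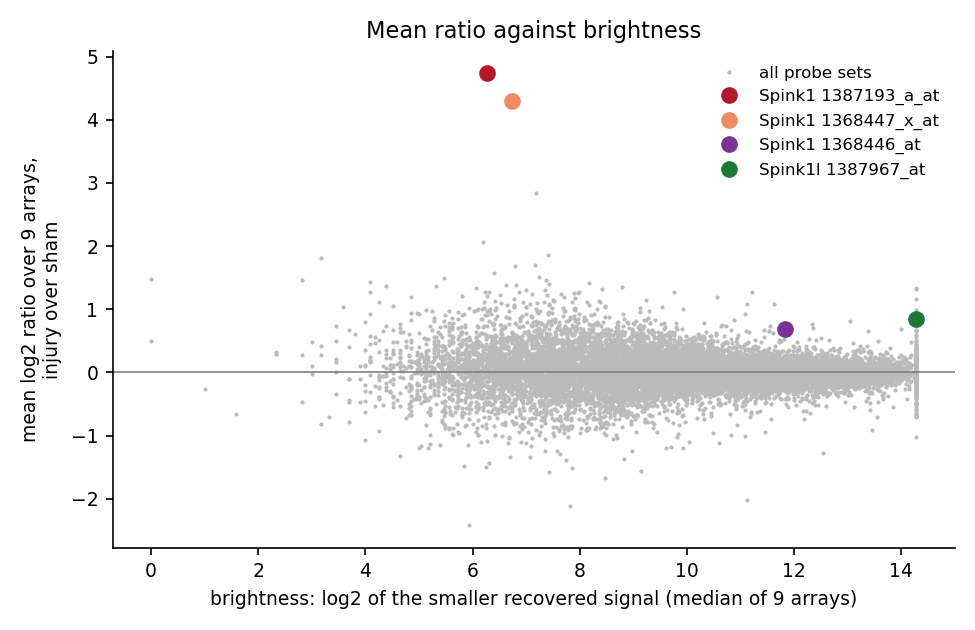
Mean centred log2 ratio over 9 arrays (vertical axis) against brightness (log2 of the smaller recovered signal, horizontal axis) for 15866 probe sets in grey and the 4 members in colour. The spread narrows with brightness. The _a_at and _x_at Spink1 sets stand at 4.73 and 4.30 among sets of low brightness, and Spink1l at 0.84 at the search limit.

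The difference between days was fitted as a test for day 7 minus day 4 alone. The genes were chosen with the ratios of these days known, days 4 and 7 included, so the test is not independent of the choice. With limma over all 15866 probe sets, the log2 difference was 1.46 for 1387193_a_at (95% interval -2.26 to 5.19, adjusted p = 0.795). It was 0.58 for 1368447_x_at (-2.43 to 3.59, adjusted p = 0.914, limma). For 1368446_at it was 0.55 (-0.04 to 1.14, limma adjusted p = 0.478), and for Spink1l it was -0.19 (-0.74 to 0.36, limma adjusted p = 0.823). The test called 1 of 15866 probe sets (0.00630%), that of Lig4, which was named after its value was seen, and 1759 had an unadjusted p under 0.05. Leaving out 1 array gave differences between 0.11 and 2.78 for 1387193_a_at, -0.15 and 1.69 for 1368447_x_at, 0.33 and 0.70 for 1368446_at, and -0.27 and -0.08 for Spink1l. The intervals of the _a_at and _x_at sets are wide, so a change of several fold between days 4 and 7 was not detectable in them. Day 4 minus day 2 was -3.01, -2.49, -0.47 and -0.49 for the _a_at, _x_at, _at and Spink1l sets, and day 7 minus day 2 was -1.55, -1.91, 0.08 and -0.68, given without a test.

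Exocrine pancreas is the tissue best known for Spink1, and its marker genes were high in 2 arrays of day 4. The list holds 21 genes on the array, without Spink1, and the median log2 ratio of the list was 2.44 in day 4 sample 2 and 0.99 in day 4 sample 3. In the other 7 arrays it lay between -0.18 and 0.15. In these 2 arrays 20 and 16 of the 21 genes were above 0, against 8 to 13 in the others, and 0 of 21 passed in limma on any day. The summed recovered signals of the list were 84271 in injury against 13117 in sham in day 4 sample 2, and 31876 against 15193 in day 4 sample 3. In the 3 arrays of day 2 they were 14704 against 14505, 12984 against 14853 and 17855 against 18354. Cpa1, a pancreatic carboxypeptidase, was at -0.36 ± 0.74 on day 2, 3.52 ± 1.51 on day 4 and -0.14 ± 1.44 on day 7 (SD, n = 3 each). The Spink1 ratios of 8.04 and 7.32 in the _a_at set stood in day 2 samples 1 and 2, where the list medians were -0.09 and 0.10. Single genes of the list ran from -1.57 to 1.64 in sample 1 and from -2.64 to 2.21 in sample 2 of that day. Without day 4 samples 2 and 3, the mean of the day means was 4.35 for the _a_at set, 3.99 for the _x_at set, 0.74 for 1368446_at and 0.92 for Spink1l. The part of pancreatic RNA in the Spink1 and Spink1l ratios was not tested, on day 4 or on days 2 and 7. In bulk RNA a change in cell numbers and a change in RNA per cell cannot be told apart.

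**Figure D4:**
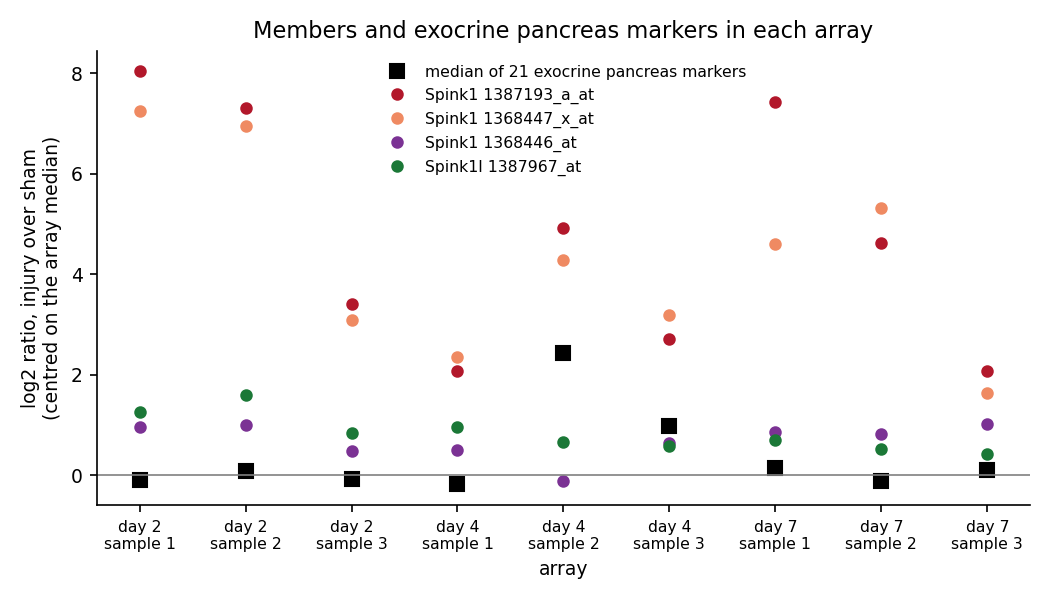
Centred log2 ratios (vertical axis) in each of the 9 arrays (horizontal axis) for the 4 members and, as black squares, the median of 21 exocrine pancreas markers. The squares lie near 0 except in samples 2 and 3 of day 4, at 2.44 and 0.99, while the _a_at and _x_at Spink1 sets are above 1.6 in every array.

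The other marker lists had medians closer to 0 than exocrine pancreas markers on day 4, whose median over that day's gene means was 1.36. The median log2 ratio of the 16 hepatocyte markers was 0.12 on day 2, -0.10 on day 4 and -0.13 on day 7. Gut epithelium markers, from another site of Spink1 expression, had a median ratio of 0.10, 0.16 and 0.01 on these days. Bile duct markers were at 0.15, -0.14 and -0.16, neutrophil and macrophage markers at 0.16, 0.34 and -0.07, red cell markers at 0.03, 0.72 and 0.32, and endocrine pancreas markers at 0.03, -0.16 and 0.17. The median of all genes was between -0.01 and 0.01 on the 3 days. Fold changes and tests of these lists are by gene, with the probe sets of a gene averaged, over 10411 genes.

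Trypsin itself and the other pancreatic serine proteases did not pass the test. In limma over all genes, 0 of the 9 measured members were called on any day or in the mean of the 3 days, where 2 of 10411 genes were called higher (0.0192%) and 2 lower (0.0192%). The higher ones were Orm1 and Spink1l, whose own ratio chose it, so nothing is read from its call, and the lower ones, named after their values were seen, were Map2k6 and Zfp37. On each single day 0 genes were called in either direction (0.00%), with 809, 917 and 1139 genes at an unadjusted p under 0.05 on days 2, 4 and 7. The median of the list was 0.03 on day 2, 1.40 on day 4 and 0.08 on day 7. Prss1, a trypsinogen, had log2 ratios of -0.16, 0.80 and 0.61 on day 2, -0.05, 3.76 and 1.81 on day 4, and 0.55, -0.10 and -0.23 on day 7. It was highest in the 2 arrays with high pancreas markers. Prss3b, another trypsinogen, averaged 0.82, 2.72 and 0.69 on the 3 days, and the elastase Cela2a 0.04, 1.44 and 0.30. Cela1, an elastase gene, was at -0.67 ± 0.20, 0.17 ± 0.07 and -0.88 ± 0.31 (SD, n = 3 each), with a mean over 9 arrays of -0.46 that did not pass (limma adjusted p = 0.154) except with a variance trend that follows brightness (0.0345).

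Other inhibitors with Kazal, Kunitz or WAP domains stayed close to 0. Of 13 measured members 0 were called, 5 had a mean above 0, against 50.5% of all genes, and the median was -0.01. The Kazal family members Spink5 and Spink8 averaged 0.19 ± 0.96 and -0.13 ± 0.27 over the 9 arrays (SD, n = 9), and they were above 0 in 4 and 2 arrays. Follistatin (Fst), which also has Kazal-like domains, was at 0.26 and Reck, a membrane-bound inhibitor of matrix proteases, at -0.22.

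The list of plasma inhibitors was drawn up for trypsin binding, but some members are inhibitors of other proteases, as named below. It had 9 of 12 members with a mean above 0, against 50.5% of all genes. Its median over the 9 arrays was 0.22, against 0.00 over all genes. On day 2, 11 of 12 were above 0 with a median of 0.34, on day 4 6 of 12 with -0.05, and on day 7 8 of 12 with 0.13. Of all genes, 50.8%, 51.0% and 48.4% were above 0 on days 2, 4 and 7. The gene lists were chosen with earlier results of these data known, so such shares carry no weight of their own. None of the 12 passed in limma. The bait-type inhibitor A2m, an acute-phase protein of the rat that traps proteases of many classes, had 1.19, 2.90 and 1.52 on day 2, 0.15, 0.74 and 0.66 on day 4, and 1.67, 1.27 and 1.34 on day 7. All 9 arrays were above 0 and day 4 did not overlap with the other days, as its highest value was below their lowest. The fitted differences of A2m between days did not pass (limma adjusted p = 0.584 for day 4 minus day 2 and 0.454 for day 7 minus day 4). Its mean of 1.27 (limma adjusted p = 0.0935) and that of Serpina10, an inhibitor of coagulation factor X, of 0.45 (0.147) did not pass, nor did Serping1, the C1 inhibitor, at 0.32 (0.371). With the variance trend A2m and Serpina10 passed (limma adjusted p = 0.00666 and 0.0213). Serpina3m had -0.40 ± 0.97 (SD, n = 9). Serpina1, also chosen after its values were seen and the main serpin of plasma and an inhibitor of trypsin and elastase, was at -0.05 and above 0 in 2 of 9 arrays.

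Among acute-phase proteins, 1 of 24 measured members rose in the mean of the 3 days and 0 fell. Over all genes, 2 of 10411 were called higher (0.0192%) and 2 lower (0.0192%). Orm1, an acid glycoprotein of the acute phase, rose 1.72-fold (log2 0.78, SE 0.07, limma adjusted p = 0.0263) and was above 0 in 9 of 9 arrays. Leaving out any array other than day 2 sample 3 left 0 list genes called. The log2 ratio of Orm1 was 1.06, 1.17 and 0.77 on day 2, 0.45, 0.33 and 0.39 on day 4, and 1.06, 0.82 and 0.96 on day 7. Day 4 lay below the ranges of days 2 and 7. The fitted differences did not pass (limma adjusted p = 0.557 for day 4 minus day 2 and 0.313 for day 7 minus day 4). The iron-binding protein gene Lcn2 averaged 1.19 and Lbp, which binds bacterial lipopolysaccharide, 1.16. Igfbp1, a binding protein of insulin-like growth factors, averaged 1.32 but was at -0.63 on day 7. Their limma adjusted p lay between 0.133 and 0.154. With the variance trend these 3 passed as well (limma adjusted p between 0.0142 and 0.0219). Together with Orm1 they had the largest means of the list, whose median over the gene means was 0.15. The median of the list was 0.32 on day 2, 0.02 on day 4 and 0.13 on day 7. The mean over 9 arrays was above 0 in 20 of 24 members, against 50.5% of all genes. This share, like those of the other lists, is of genes chosen with earlier results known.

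**Figure D5:**
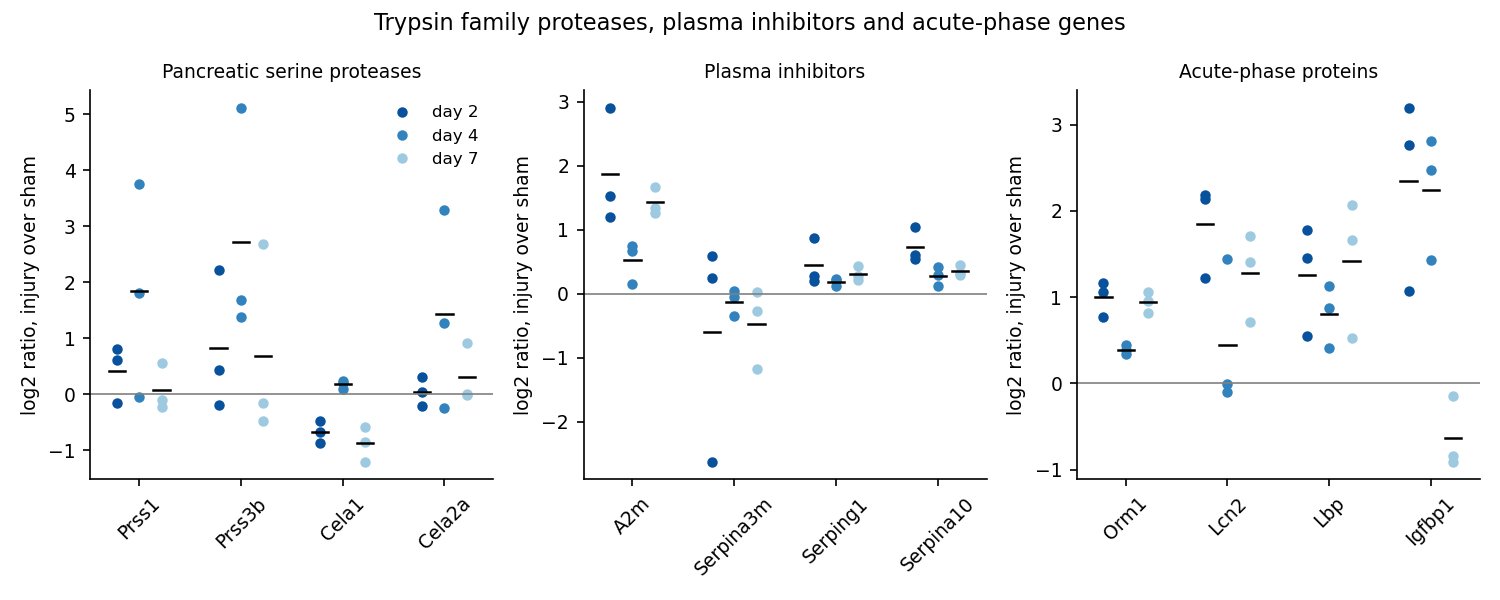
Centred log2 ratios (vertical axes) by array for the named genes of 3 lists, with days 2, 4 and 7 in shades of blue from dark to light and black bars for day means. Prss1 and Prss3b are highest in a day 4 array, at 3.76 and 5.11, while Orm1 and A2m are above 0 in all 9 arrays.

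Genes of the interleukin 6 receptor and STAT3 pathway had 10 of 16 members with a mean above 0, against 50.5% of all genes. The list median was 0.10, with 0 called. Socs3, the feedback inhibitor induced by STAT3, averaged 0.77 ± 0.07 on day 2, 0.07 ± 0.52 on day 4 and 0.95 ± 0.37 on day 7 (SD, n = 3 each). Stat3, the transcription factor, was at 0.31, 0.62 and 0.83 on the 3 days, and Junb, a component of AP-1, at 1.03, 0.71 and 0.11. Cish, another suppressor of cytokine signalling, had a mean of -1.20 with an SD of 1.62 over the 9 arrays. A further list held protease-activated receptors, which trypsin can cleave, and EGF and gut hormone ligands and receptors. In it 12 of 17 were above 0, against 50.5% of all genes, the median was 0.11 and 0 were called. Egf averaged -0.40 and the receptor genes F2rl3, Erbb2 and Sctr 0.58, 0.43 and -0.49, each with an SD between 1.17 and 1.65 except Egf with 0.47.

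Likeness of pattern was measured by Pearson's correlation over the 9 arrays, among 5261 probe sets with 1 gene symbol and an SD of at least 0.5, and it is a description of arrays that share their day. The 5 most like the mean of the Spink1 sets were Arid2 (r = 0.96), Cmklr2 (0.94), Thrsp (0.93), Cask (0.92) and Acly (0.92). Thrsp is a regulator of lipid synthesis in liver, and Acly makes cytosolic acetyl-CoA. Their means over the 9 arrays ran from -0.15 for Acly to 1.27 for Cask, well under those of the _a_at and _x_at Spink1 sets. The 5 most like Spink1l were Ldhd (0.94), Klc1 (0.94), Krt6c (0.92), Eif4ebp3 (0.91) and Gzmf (0.91), of which 4 had a mean below 0. The _a_at and _x_at sets correlated with each other at 0.90, while 1368446_at correlated with them at 0.28 and 0.28 and with Spink1l at 0.25. Spink1l correlated with the _x_at set at 0.68 and with the _a_at set at 0.59.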

How the data were processed

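The authors deposited 1 log2 ratio per probe set and sample. The labels name the array and both channels, while software, scaling and build are not stated there. Of 15923 rows, 57 controls were left out. Symbols came from the platform annotation (1 symbol for 12783 probe sets, several for 312, none for 2771), and 12748 of the 12783 had an ID in the GRCr8 RefSeq table.

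Ratios were centred on the array median. Whole-number pairs were searched by continued fractions. The fit was limma 3.58.1 in R 4.3.3 (lmFit, eBayes, a mean per day, 9 arrays, 6 residual df), Benjamini-Hochberg adjusted over all features and a threshold of 0.05, tested on simulated data. Promoters were aligned with Biopython 1.88. For arrays, their number limits the precision.

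Named genes were the members, list genes called or among the 4 largest means, and the 5 most alike probe sets. The members, gene lists and tests were chosen with earlier results of these data known. Alternatives were no centring, quantile normalization, a variance trend, array weights, 12 arrays, bright probe sets only, leaving out arrays, averaging and the sample number as a block. Same-numbered samples did not deviate together (r between -0.03 and 0.05 for 9 pairs).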

Additional observations from a re-analysis of the deposited data

Results flagged for a closer look

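Of 161 list genes, 21 had every array of 1 day above 0 and every array of another day below 0. The 4 of them that the rule for named genes holds are given here, and the other 17 are not. The share of all genes with such opposite days was not counted, so nothing is read from the count of 21. Cela1 was at 0.17 on day 4, against -0.67 on day 2 and -0.88 on day 7. Hnf4a, a liver transcription factor, was at 0.53 on day 2 and 0.94 on day 7, against -0.26 on day 4. Igfbp1 was at 2.34 on day 2 and 2.24 on day 4, against -0.63 on day 7. Tat, a tyrosine-degrading liver enzyme, was at 0.97 on day 2 and -0.39 on day 7. The tests of these differences between days did not pass (limma adjusted p between 0.231 and 0.568). None of the 4 Spink1 and Spink1l probe sets had such opposite days.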

How the results depend on the processing

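Day means and means of the 4 Spink1 and Spink1l probe sets were taken without centring, with quantile normalization, with array weights, among bright probe sets and leaving out arrays. All 216 were above 0. The genes were chosen by these same ratios, so this count carries no weight of its own. Spink1l on day 4 was 0.97 without day 4 samples 2 and 3, an alternative chosen after seeing the data. The _a_at and _x_at Spink1 sets have no value among bright probe sets only. Day 7 minus day 4 of 1368447_x_at ran from -0.15 to 1.69 when arrays were left out, with -0.15 without day 7 replicate 2. That of 1387193_a_at ran from 0.11 to 2.78, and no member passed under any alternative. The cause of these changes was not tested.

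Counts called in the lists were 0, 0, 0 and 1 on days 2, 4 and 7 and in the mean, and over all genes 0, 0, 0 and 4. With a variance trend they were 4 in the lists and 15 of all genes on day 2, 1 and 5 on day 7, and 7 and 31 in the mean, and among bright probe sets, where fewer were tested, 4 and 15, 1 and 5, and 8 and 35. With quantile normalization 1 list gene, the only gene called, passed on day 4 and 2 genes in the mean. With array weights 1 and 2 passed on day 4. With 12 arrays, of which those of day 1 have identifiers that do not match, 1 and 1 passed on day 4, 1 of all genes on day 7, and 2 and 8 in the mean. Without day 4 samples 2 and 3 the mean gave 0 and 0. Leaving out 1 array gave 0 to 1 list gene on day 4 and in the mean, 0 to 1 of all genes on each day, and 0 to 3 in the mean.

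For day 7 minus day 4, 1 probe set passed, against 0 without centring, 0 with 12 arrays, 0 without day 4 samples 2 and 3, 2 with quantile normalization, 3 with a variance trend, 6 among bright probe sets and 0 to 6 leaving out 1 array. With the replicate number as a block 0 passed, and the block changed no other call. The deviations of samples correlated at r -0.03 to 0.05 for the same number and -0.10 to 0.09 for others. These values cannot show whether samples were paired.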
